A study of Saccharomyces cerevisiae with 18 samples.

Results

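The 6 wild-type (WT) libraries of a budding yeast series were used here, of 18 in all, and they were chosen by their genotype label alone. The other 12 libraries, of the strains in which lysine 467 of Nup60 was replaced, were not analysed here. In WT, an S288C strain, the NUP60 gene ended in a GFP tag next to a HIS3 marker from S. kluyveri. Nup60 sits in the basket on the nuclear side of the pore, and the other strains also carry GFP on it. Cells thawed from a frozen stock were grown overnight in YP medium with adenine and 2% glucose, diluted from that saturated culture to an optical density of 0.1, and grown at 25 °C to an optical density between 0.6 and 0.7. Poly(A) RNA was taken from asynchronous cells. The labels do not say whether the 6 libraries came from separate cultures, so every SD below is the spread between these 6 samples. The values describe how the poly(A) RNA of such cells was divided among genes and functions, and which genes had few or no counts.

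Budding yeast with ample glucose ferments it to ethanol even in the presence of oxygen, and represses genes for other carbon sources and for respiration. In this state much of the transcription by RNA polymerase II goes to ribosomal proteins and to a few glycolytic enzymes, while genes for mating of the other cell type, for meiosis and for scarce nutrients are held at low levels. Most ribosomal protein genes and many enzyme genes exist as duplicates kept from an ancient whole-genome duplication.

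Each library had 12395725 to 19093010 reads counted on genes, 86302447 in all, or 75.5 to 76.0% of the total of the counting summary. Entries for multiply aligned reads, which no gene received, were 18.6 to 18.96% of that total. A read may be entered there more than once, so this need not be the share of reads lost. Between 5.06 and 5.34% fell in no gene, and 0.310 to 0.335% were ambiguous. Between 6199 and 6307 of 7036 features had a count in a library. Levels are given as CPM, which is counts per 1000000 gene counts, and as TPM, which also divides by the coding length (untranslated regions are not in it). Levels of different genes are set against each other in TPM, and an order in CPM describes only how the counts were divided. WT 2 and WT 3 were the most alike pair. The chi-square of their counts divided by its degrees of freedom was 2.52, and it was largest, 28.7, between WT 1 and WT 3. WT 1, WT 5 and WT 6 resembled each other, and WT 4 lay between the 2 sets. In bulk RNA, fewer cells that express a gene and less of its RNA per cell cannot be told apart.

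The pool was concentrated in few genes. The 5897 nuclear protein-coding genes held 99.9% ± 0.00274 of counts (SD, n = 6). Of all 7036 features, 211 held 50% of the counts, with 193 to 233 in single libraries, and 39 held 25%. Per coding length 114 genes held 50% of TPM, with 107 to 124 in single libraries, and 485 held 75%. The 10 highest genes took 13.5% ± 0.407 of counts and 10.98% ± 0.196 of TPM. The 187 coding genes at 1000 TPM or more, 3.17% of coding genes, held 60.6% ± 1.70 of TPM. Another 1032 genes lay between 100 and 1000 TPM, 3413 between 10 and 100, and 810 between 1 and 10. The median coding gene had 30.6 TPM.

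**Figure D1:**
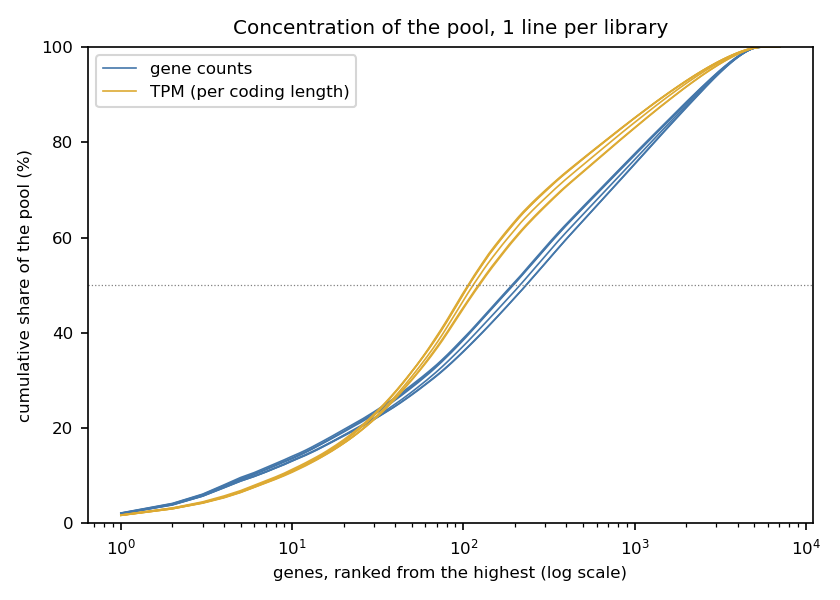
Cumulative share of the pool (%) against the rank of genes from the highest, on a log scale, with 1 line for each of the 6 WT libraries, for gene counts and for TPM. The TPM lines cross 50% at 107 to 124 genes and the count lines at 193 to 233.

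TDH3, the main form of the glycolytic enzyme glyceraldehyde-3-phosphate dehydrogenase, had the highest level. Its TPM was 16782, 17030, 17383, 16970, 17173 and 17717 in WT 1 to WT 6, so that the libraries lay close together around a mean of 17176 ± 333 (SD, n = 6). TDH3 shares reads with the near-identical TDH2, so this is a lower limit. TDH3 alone took 2.09% ± 0.0747 of counts. It was followed by FBA1, the aldolase of glycolysis, at 14212 ± 435 TPM, and by CCW12, a mannoprotein of the cell wall, at 11907 ± 762. ENO2, an enolase, had 11760 ± 453 TPM and GPM1, phosphoglycerate mutase, 10935 ± 242. Between them stood RPS31, which encodes ubiquitin fused to a protein of the small ribosomal subunit, at 11253 ± 428. The ranges of CCW12, ENO2, RPS31 and GPM1 overlapped across libraries. Read within libraries, CCW12 and ENO2 each lay above GPM1 in 6 of 6, and the order of the other pairs among them varied. PDC1, pyruvate decarboxylase, had 9207 ± 428 TPM, CDC19, pyruvate kinase, 7872 ± 313, and ADH1, the alcohol dehydrogenase that makes ethanol, 7466 ± 303. Ribosomal proteins of both subunits, among them RPS12, RPS2, RPL10, RPS20 and RPL30, were also among the 15 highest. Of the counts, of which long genes take more, TDH3 again took the most, at 20879 ± 747 CPM, with PDC1 (18936), ENO2 (18800), FBA1 (18678) and CDC19 (14393) behind it. YEF3, the long gene of translation elongation factor 3, was among the 10 genes with the most counts, at 7311 CPM, and not among the 15 highest in TPM.

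The upstream region of TDH3 is shown because it stands before the gene with the highest level. It covers 300 bases that end 100 bases before the start codon, read from the R64 genome at RefSeq's position for the gene (chrVII:883911-884210, minus strand). Capitals mark the Rap1 motif ACCCNNNCA and the TATA box (TATAAA or TATATA, which overlap here). All motifs were searched on both strands.
TDH3: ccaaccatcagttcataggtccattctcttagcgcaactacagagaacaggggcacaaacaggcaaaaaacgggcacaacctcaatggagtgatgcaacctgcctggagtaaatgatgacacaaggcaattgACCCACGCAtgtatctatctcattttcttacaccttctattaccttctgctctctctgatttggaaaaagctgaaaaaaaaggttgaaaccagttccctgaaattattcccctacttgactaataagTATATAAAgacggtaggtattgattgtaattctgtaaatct
A TATA box match was found in the windows of 15 of 17 glycolysis genes (88.2%), in 52 of 138 ribosomal protein genes (37.7%) and in 58.4% of the windows of all 5896 coding genes that have one. These windows may reach into a neighbouring gene, and a match is a run of letters, not a measured site.

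Reads that fit several places were not counted, which lowers genes with a close copy. TEF1 and TEF2 encode the same protein, translation elongation factor 1 alpha, and only 7.53% of their windows of 50 bases occur once over all spliced features. They were listed at 842 ± 36.9 and 1177 ± 45.8 TPM (SD, n = 6). When counts were divided by the number of unique windows in place of the coding length, TEF2 took rank 3 of 5830 coding genes and TEF1 rank 9, against ranks 168 and 214 in TPM. On that scale TDH3, with 75.6% unique windows, was at rank 2 behind RPL41B, a ribosomal protein gene so short that the value rests on 9 unique windows. In all, 204 coding genes had fewer than 50% unique windows, and levels of such genes are lower limits.

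Cytosolic ribosomal proteins, with 138 genes, held the largest share of the 26 functional lists. They took 23.2% ± 1.48 of counts (SD, n = 6) and 40.99% ± 1.62 of TPM. Their share of counts was 24.7, 21.5, 21.2, 23.3, 24.4 and 23.9% in WT 1 to WT 6, lowest in WT 2 and WT 3. None was silent or near silent (8.51% of all coding genes were), and the median was 2970 TPM against 30.6 over all coding genes. The range ran from RPS31 at 11253 TPM to RPL15B at 80.6 ± 3.37. RPL7B had 265 ± 7.67 TPM and RPS9A 326 ± 4.45. RPL7B has a near-identical copy, RPL7A, and 43.1% unique windows.

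Introns are rare in yeast but common in ribosomal protein genes. The 271 coding genes with an intron in R64 were 4.60% of coding genes and held 15.03% ± 0.895 of counts and 26.5% ± 0.989 of TPM (SD, n = 6). Of these, 90 ribosomal protein genes held 24.0% ± 1.02 of TPM and the 181 others 2.54% ± 0.0353. Ribosomal protein genes thus made up most of the TPM of genes with an intron. The 48 ribosomal protein genes without an intron had a median of 3405 TPM and the 90 with one a median of 2574. Levels of 40 of the 138 ribosomal protein genes are lower limits because of a near-identical copy, which these medians do not take into account.

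RPL26B, which encodes a large-subunit protein, had 3521 ± 165 TPM (SD, n = 6). Its upstream window (R64, chrVII:555412-555711, plus strand) is shown because it is that of the highest ribosomal protein gene with no near-identical copy and a pair of Rap1 matches, in capitals.
RPL26B: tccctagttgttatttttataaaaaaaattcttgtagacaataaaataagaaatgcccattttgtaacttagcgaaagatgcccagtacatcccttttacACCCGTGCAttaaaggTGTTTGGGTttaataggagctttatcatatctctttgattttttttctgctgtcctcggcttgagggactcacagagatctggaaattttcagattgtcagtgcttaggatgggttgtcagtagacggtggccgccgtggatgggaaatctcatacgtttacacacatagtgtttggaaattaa
The Rap1 motif was in the windows of 57 of 138 ribosomal protein genes (41.3%), of 33 of the 100 highest genes by TPM (33%), and of 9.06% of all coding genes. Rap1 is a DNA-binding protein known to bind before most ribosomal protein genes and at telomeres.

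The rest of the translation machinery took smaller shares. Translation factors (43 genes) held 3.72% ± 0.0404 of counts (SD, n = 6), and the highest in TPM, in which TEF1 and TEF2 are lower limits, were HYP2, translation factor eIF5A, at 5192 ± 193 TPM and EFB1, an exchange factor for elongation factor 1, at 4217 ± 96.1. DBP1, a helicase related to the initiation factor Ded1, was the lowest at 3.96 ± 0.376. The 22 genes of aminoacyl-tRNA synthetases held 1.62% ± 0.0552 of counts and formed a narrow band, from CRS1 at 126 ± 12.8 TPM to KRS1 at 687 ± 46.8. The 167 ribosome biogenesis genes, whose products process rRNA and assemble the subunits, held 3.47% ± 0.198 of counts and had a median of 91.0 TPM. Their range went from URB2 at 13.2 ± 2.04 TPM to NOP10 at 1275 ± 103 and SNU13 at 1074 ± 46.0. In none of these 3 lists was a gene silent or near silent (8.51% of all coding genes were), though a list as short as that of the synthetases would hold few at that share.

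NSR1, a nucleolar protein of pre-rRNA processing, had 580 ± 45.2 TPM (SD, n = 6). Its window (R64, chrVII:807757-808056, minus strand) is shown because it is the highest ribosome biogenesis gene with both motifs known from such genes, RRPE (AAAAATTT) and PAC (GCGATGAG, here on the other strand), in capitals.
NSR1: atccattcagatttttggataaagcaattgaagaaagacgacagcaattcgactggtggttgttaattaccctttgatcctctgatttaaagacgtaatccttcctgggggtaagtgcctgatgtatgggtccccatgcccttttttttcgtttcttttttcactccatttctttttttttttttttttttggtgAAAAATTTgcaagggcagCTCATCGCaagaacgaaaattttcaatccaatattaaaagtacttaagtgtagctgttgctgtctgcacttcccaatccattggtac
RRPE was in 120 of 167 ribosome biogenesis windows (71.9%) against 15.3% of all windows, and PAC in 53 (31.7%) against 3.53%. Before silent and near-silent genes RRPE was in 6.39% and PAC in 0.798% of windows.

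Glycolysis, with 17 genes, held 10.98% ± 0.388 of counts and 8.12% ± 0.182 of TPM (SD, n = 6), between 10.6 and 11.5% of counts in single libraries. The list was split, with 14 genes above the median of all coding genes and 3 minor isozymes far below the rest. The 3 were TDH1 at 15.8 ± 1.29 TPM, PYK2 at 13.8 ± 1.39 and HXK1, a hexokinase, at 11.7 ± 2.75. Ethanol fermentation and acetate metabolism (17 genes) held 3.34% ± 0.0687 of counts, and PDC1 and ADH1 were its highest members. In that list ALD6, which makes acetate, had 977 ± 46.5 TPM, while PDC6, a further pyruvate decarboxylase gene, had 0.285 ± 0.138 and was near silent.

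Glucose enters through hexose transporters, and their 19 genes with the sensors RGT2 and SNF3 held only 0.160% ± 0.0336 of counts (SD, n = 6). HXT3, a low-affinity transporter, was the highest, with 308, 465, 513, 364, 301 and 316 TPM in WT 1 to WT 6 and a mean of 378 ± 90.3. WT 2 and WT 3 were the highest libraries and WT 1, WT 5 and WT 6 the lowest. HXT2 had 244 ± 67.3 TPM and HXT1 119 ± 30.7. HXT6 and HXT7, which carry glucose when it is scarce, had 0.489 and 1.07 TPM, and HXT15 and HXT16 had no counts. All 4 have a near-identical copy, as do 8 of the 19 genes of the list, so these values are lower limits.

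Amino acid synthesis, chaperones and cell wall proteins also took sizeable shares. Amino acid biosynthesis (73 genes) held 4.07% ± 0.0689 of counts (SD, n = 6), led by ILV5 of valine and isoleucine synthesis at 2331 ± 161 TPM and BAT1, a branched-chain aminotransferase, at 1380 ± 71.6. Chaperones (56 genes) held 2.91% ± 0.0447, led in TPM by the subunits of the nascent polypeptide-associated complex EGD2, at 1717 ± 87.2 TPM, and EGD1, at 1550 ± 85.2, and by the proline isomerase FPR1 at 1575 ± 63.7. SSB1, a chaperone at the ribosome, had 1390 TPM with only 56.8% unique windows, so its place below them is not settled. Cell wall proteins (56 genes) held 2.78% ± 0.0894 of counts, and CCW12 was the highest of them by far, with CWP2 next at 2751 ± 475 TPM. Nucleotide synthesis held 1.38% of counts, proton pumps with the vacuolar ATPase 1.22%, sterol synthesis 1.16%, the secretory pathway 1.07% and the proteasome 1.01%. The 38 proteasome and ubiquitin genes lay in a narrow band, from RPN4, their transcription factor, at 72.5 ± 6.93 TPM to PUP3 at 355 ± 14.1.

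Short genes gain when counts are divided by length. The 11 histone genes held 0.483% ± 0.0310 of counts and 1.02% ± 0.0344 of TPM (SD, n = 6), from CSE4, the centromeric histone, at 41.4 ± 3.09 TPM to HHT2 at 1640 ± 45.2. Redox defence held 0.997% of counts and 1.46% of TPM, led by the peroxiredoxins AHP1 at 5541 ± 367 TPM and TSA1 at 2894 ± 140. The nuclear-encoded respiratory chain and ATP synthase (42 genes) held 0.357% ± 0.0137 of counts, and the 78 mitochondrial ribosomal protein genes 0.409% ± 0.0150, with a median of 64.3 TPM against 2970 for the cytosolic ones. The 32 nuclear pore genes held 0.401% ± 0.0275 of counts with a median of 36.5 TPM. SEC13, shared with the secretory coat, had 248 ± 9.38 TPM, and the large scaffold genes NUP188 and NUP192 had 14.7 ± 2.08 and 16.8 ± 2.54. NUP60, which carried the GFP tag, had 43.3 ± 5.75 TPM. The 4754 coding genes in none of these 26 lists held 30.8% of counts and 24.1% of TPM.

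**Figure D2:**
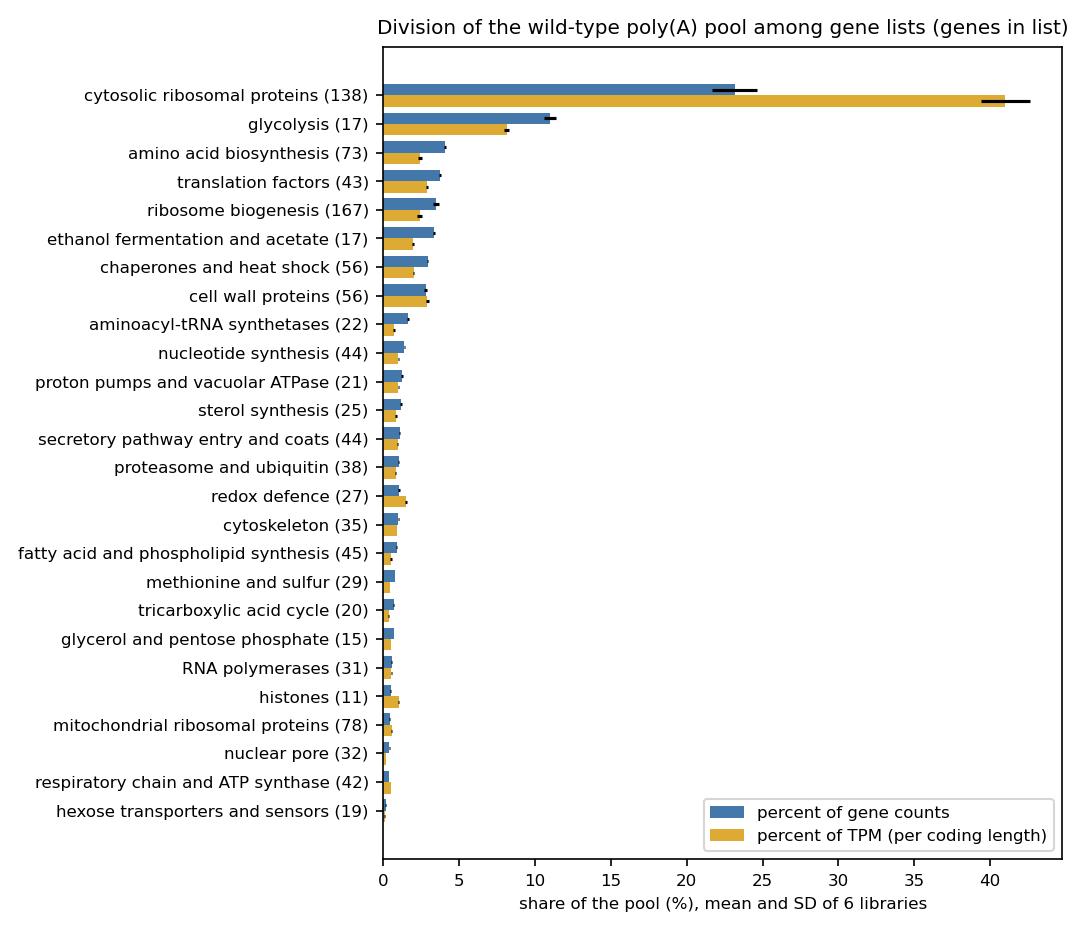
Share of the pool (%) held by each of 26 gene lists, as percent of gene counts and as percent of TPM, with bars for the mean and lines for the SD of 6 WT libraries, and the number of genes of each list in brackets. Cytosolic ribosomal proteins hold 23.2% of counts and 40.99% of TPM, and glycolysis 10.98% of counts and 8.12% of TPM.

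From 300 bases on, longer coding genes had lower median levels, but the shortest genes were lowest of all. Over all coding genes the median was 14.8 TPM under 300 bases, 48.0 from 300 to 600 and 45.3 from 600 to 1200. It was 28.1 from 1200 to 2400 and 16.7 beyond. Across the 5395 coding genes above the limit for near silence, Spearman's rho between coding length and mean TPM was -0.38, given as a description because genes are not replicates and TPM itself contains the length. Over all 5897 coding genes the mean coding length was 822 bases when each gene was weighted by its TPM and 1440 unweighted. Genes under 300 bases made up 307 of the coding genes, of which 40.7% were silent or near silent, yet they held 9.81% of TPM. The limit for near silence is in CPM, so it takes out short genes at a higher TPM than long ones. That bears on both this percentage and rho.

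The proteins encoded by the pool, translated from R64 coding sequences, differed in make-up from the average over genes. Weighted by TPM, alanine made up 8.11% ± 0.0892 of encoded residues against 5.53% unweighted, glycine 6.51% against 5.02% and valine 7.12% against 5.61% (SD over 6 libraries). Asparagine was lower, at 4.83% weighted against 6.10% unweighted, as were serine (7.25% against 8.96%) and cysteine (1.01% against 1.28%). The use of codons within an amino acid differed as well. GGT encoded 77.1% ± 0.710 of glycines in the weighted pool and 45.4% unweighted, AGA 70.6% against 47.4% of arginines, AAG 67.8% against 42.1% of lysines, TTG 53.0% against 28.3% of leucines, and CCA 66.9% against 40.7% of prolines. For aspartate and histidine the pool was more even, with GAT at 51.8% of aspartates weighted against 65.4% unweighted, and CAC at 59.5% of histidines weighted against 35.7%.

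Silent genes, with 0 counts in all 6 libraries, numbered 471 of the 7036 features (6.69%). Among nuclear protein-coding genes 112 of 5897 were silent (1.9%), and 390 more (6.61%) were near silent, with at least 1 count but a mean under 1 CPM. Together these were 502 genes, 8.51% of coding genes. For a silent gene whose reads can be assigned, the 0 counts allow a level of up to 0.0348 CPM, which is 3 counts over the 6 libraries. Of the 112 silent genes 72 had a near-identical copy and 53 had no unique window of 50 bases, and reads that fit several places were not counted. Some with a copy still had many unique windows, such as GEX1 with 716, and 14 coding genes with no unique window did have counts. Only 38 of the silent genes had neither limit. Windows were compared among annotated features only, so a window called unique may still repeat elsewhere in the genome. Of the 502 silent or near-silent genes 358 had no near-identical copy and at least 1 unique window. Just inside the limit were YBR292C, ZNF1, YNL143C and CRF1 at 0.994 to 0.998 CPM, and just outside SET4, YLR031W, YPR202W and HXT6 at 1.01 to 1.02.

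The silent genes with a standard name were mostly members of repeated families. They included the seripauperins PAU1, PAU6, PAU9, PAU14, PAU16, PAU18, PAU21 and PAU22, the asparaginase genes ASP3-1 to ASP3-4, the helicase genes YRF1-4, YRF1-5, YRF1-7 and YRF1-8 of the subtelomeric Y-prime elements, the enolase-related ERR1, ERR2 and ERR3, and the metallothionein pair CUP1-1 and CUP1-2. CUP1-1, CUP1-2 and the ASP3 genes had no unique window. HMLALPHA1, HMLALPHA2, MATALPHA1, MATALPHA2 and HMRA2 of the mating-type loci were silent and had no unique window either. APQ13, RRT7 and RRT15 were silent, with no near-identical copy and with 62, 293 and 134 unique windows. Most windows of APQ13, which is 417 bases long, were not unique, so its 0 counts do not settle its level. RRT15 ends the run of genes without counts around the rDNA and ASP3 repeats given below.

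Quiet genes were crowded at chromosome ends. Of the 160 coding genes that are among the 5 outermost of a chromosome arm, 52 were silent and 54 near silent, which is 66.2% against 8.51% of all coding genes, and their median was 0.174 TPM. At positions 6 to 10 from the end 21.2% were silent or near silent, at 11 to 20 8.44%, at 21 to 40 5.16%, and further in 6.54%. Close copies are common there, and among the 60 outermost genes with no near-identical copy 31.7% were silent or near silent and the median was 3.99 TPM. How much unassigned reads contribute was not tested further. Some outermost genes had ordinary levels, among them IRC7 at 197 ± 22.3 TPM, HYR1, a peroxidase, at 196 ± 6.69 and PHO12, an acid phosphatase with a near-identical copy, at 186 ± 25.4 (SD, n = 6).

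The longest run of quiet coding genes, 17 in a row with 0 counts, lay inside chromosome XII from TAR1 to RRT15 around the rDNA and ASP3 repeats, and 14 of its genes had a near-identical copy. The left end of chromosome VI had 10 quiet genes in a row, from YFL068W to THI5, of which 9 had a near-identical copy. The end of chromosome I had 8, from PAU8 to YAL063C-A, with only 2 near-identical copies. Runs of 7 and 6 lay near the ends of chromosomes VIII and VII, and the other runs of at least 4 quiet genes had 4 or 5.

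**Figure D3:**
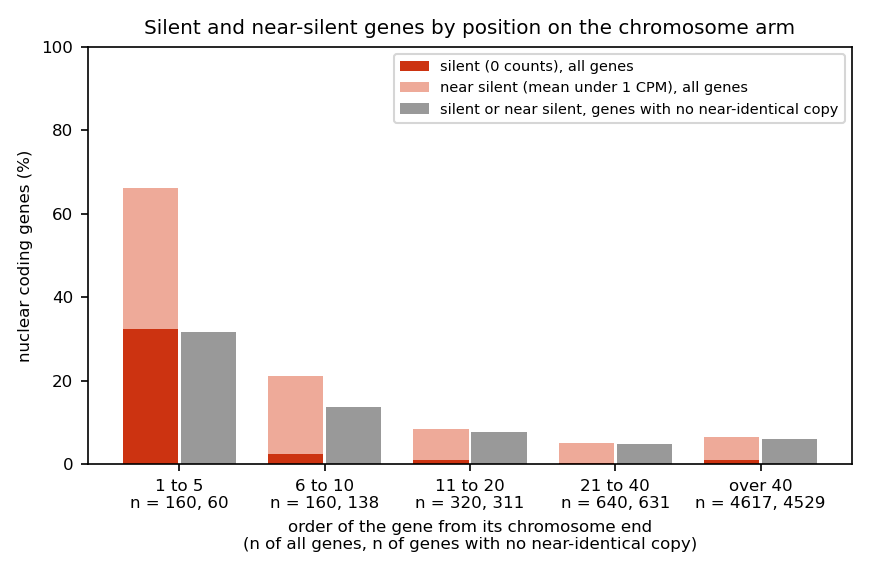
Percent of nuclear coding genes that were silent or near silent in the 6 WT libraries, by the order of the gene from its chromosome end, for all genes (stacked, silent and near silent) and for genes with no near-identical copy (grey). The share is 66.2% for the outermost 5 positions, or 31.7% without near-identical copies, and 5.16 to 8.44% beyond position 10.

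Genes that mark mating type separated into high and low sets. The 7 a-specific genes, which encode the a-factor pheromone and the receptor for alpha-factor among others, had a median of 200 TPM. None was near silent (6.61% of coding genes were), but so short a list would hold few at that share. MFA2, an a-factor gene, had 1217, 1002, 1004, 1025, 1232 and 1201 TPM in WT 1 to WT 6, and STE2, the alpha-factor receptor, had a mean of 299. Of the 5 alpha-specific genes 3 were near silent (60%, against 6.61% of coding genes). MF(ALPHA)1, the main alpha-factor gene, had 5, 1, 1, 0, 4 and 0 counts in WT 1 to WT 6 and a mean of 0.188 TPM, and STE3, the a-factor receptor, had 0.381. AFB1, at 27.5 TPM, and SAG1, at 14.3, were the other 2 members. By their means the lists overlapped only in that AFB1 lay above ASG7, an a-specific gene at 15.6, and in single libraries SAG1 reached 18.4 while ASG7 went down to 12.5. Haploid-specific genes (23) had a median of 32.4 TPM, with the G-protein subunits STE4 at 142 and GPA1 at 99.7. Of the 23, 4 were near silent (17.4%, against 6.61%), and the lowest was PRM6, a pheromone-regulated gene, at 0.267 TPM.

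Meiosis and sporulation genes were low. Of 85 genes 37 were near silent (43.5%, against 6.61%), none was silent, and the median was 1.004 TPM. IME1, the master regulator of entry into meiosis, had 3.21 TPM, NDT80, the regulator of its middle phase, 0.977, and SPO11, which makes the breaks for recombination, 2.19. Only 3 of the 85 genes exceeded the median of all coding genes: SPO24 at 1079 ± 61.8 TPM (SD, n = 6), MUM2 at 48.9 and SPR6 at 44.5. SPO24 is a short gene, and it stood apart from all other members in each library, with 995 to 1153 TPM.

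MEK1, a kinase of the meiotic recombination checkpoint, was the lowest, with 1, 1, 0, 0, 0 and 2 counts in WT 1 to WT 6. Its window (R64, chrXV:996612-996911, minus strand) is shown because it holds a pair of URS1 motifs (TAGCCGCC, here on the other strand), in capitals, the element through which Ume6 is known to repress early meiotic genes.
MEK1: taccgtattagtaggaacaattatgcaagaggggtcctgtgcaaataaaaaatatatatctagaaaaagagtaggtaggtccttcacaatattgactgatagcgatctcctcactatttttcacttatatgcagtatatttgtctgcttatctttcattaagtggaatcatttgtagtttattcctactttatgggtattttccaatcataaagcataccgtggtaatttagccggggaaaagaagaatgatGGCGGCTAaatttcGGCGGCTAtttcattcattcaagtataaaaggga
URS1 was in 13 of 85 meiosis windows (15.3%) against 1.51% of all windows, and in 5 of 30 windows of gluconeogenesis and glyoxylate genes (16.7%). The middle sporulation element core GNCACAAA was in 23 of 85 (27.1%) against 4.24%.

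Genes for other carbon sources were mostly low in this glucose medium. The 9 galactose genes had a median of 2.59 TPM, and among them the repressor GAL80 had 50.3 TPM, and GAL1, galactokinase, had 5.47 ± 0.467, with 4.73 to 5.96 across libraries. GAL7 and GAL10, the other enzymes of the pathway, had 1.80 and 1.56 TPM. GAL2, the galactose permease, was the lowest and the only near-silent member (11.1% of the list, close to the 6.61% of all coding genes), with 12, 6, 11, 15, 12 and 14 counts in WT 1 to WT 6 and 0.395 ± 0.125 TPM (SD, n = 6). Its window (R64, chrXII:289812-290111, plus strand) is shown because it holds 3 matches to the Gal4 motif, a CGG and a CCG with 11 bases between, in capitals. The 2 matches farther from its left end overlap.
GAL2: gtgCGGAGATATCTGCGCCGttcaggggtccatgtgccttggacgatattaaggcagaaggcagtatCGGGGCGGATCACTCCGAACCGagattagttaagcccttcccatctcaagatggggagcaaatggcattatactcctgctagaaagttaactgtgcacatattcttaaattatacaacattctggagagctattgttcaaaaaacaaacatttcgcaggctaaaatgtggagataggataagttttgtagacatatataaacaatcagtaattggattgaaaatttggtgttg
The Gal4 motif was in 6 of 9 galactose windows (66.7%) against 2.07% of all windows.

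The 30 genes of gluconeogenesis, the glyoxylate cycle and fatty acid use had a median of 3.14 TPM, and 7 were near silent (23.3%, against 6.61%). FBP1, fructose-1,6-bisphosphatase, had 0.537 TPM, PCK1, the first enzyme of gluconeogenesis from oxaloacetate, 3.97, and MLS1, malate synthase, 0.780. CIT2, the peroxisomal citrate synthase, and MDH3 and MDH2, malate dehydrogenases, were the 3 members above the median of all genes, at 180, 144 and 103 TPM. Of 16 genes for maltose, sucrose and other sugars 3 were silent and 4 near silent (43.8% together, against 8.51% of all coding genes), and 7 of the 16 have a near-identical copy. SUC2, invertase, was the highest of them at 36.5 TPM. The Mig1 motifs CCCCGC or CCCCAC, of a repressor that acts in glucose, were in 8 of 30 gluconeogenesis windows (26.7%) and 9.14% of all windows.

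Wall and stress lists were also low. Of 31 seripauperin and anaerobic wall genes 8 were silent and 13 near silent (67.7%, against 8.51%), and 21 of the 31 have a near-identical copy. TIR1, a cold-shock mannoprotein of that list, had 87.6 TPM. Among 34 reporters of general stress and the stationary phase the median was 6.29 TPM, with 2 silent and 6 near silent (23.5% together, against 8.51%). CTT1, cytosolic catalase, had 4.53 TPM, HSP12 8.22 ± 6.49 and HSP26 6.31 ± 0.643 (SD, n = 6), while HOR7 had 322 and TPS1, trehalose phosphate synthase, 97.6. Of 28 nitrogen catabolite genes 4 were silent and 1 near silent (17.9% together, against 8.51%). The silent ones were all ASP3 copies with no unique window, so their lack of counts does not show silence. CAR1, arginase, was the highest at 310 TPM.

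Phosphate and iron genes had medians at or above that of all coding genes, 30.6 TPM. None of the 25 phosphate genes was silent or near silent (8.51% of all coding genes were), and their median was 88.6 TPM, led by VTC1, of the polyphosphate polymerase, at 1548 and PHO84, the high-affinity transporter, at 976. None of the 28 iron genes was silent or near silent either, with a median of 31.6 TPM. Lists of this size would hold few such genes at that share, so the counts of 0 are no result about them. Of 8 loci often used as auxotrophic markers only TRP1, of tryptophan synthesis, was near silent, with 13, 11, 10, 11, 7 and 12 counts in WT 1 to WT 6 and 0.917 ± 0.200 TPM (SD, n = 6). The counts were alike in every library. HIS3 had 107 TPM, URA3 135 and LEU2 315. WT also carries HIS3 of S. kluyveri as a marker, and whether its reads were counted on HIS3 was not tested.

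**Figure D4:**
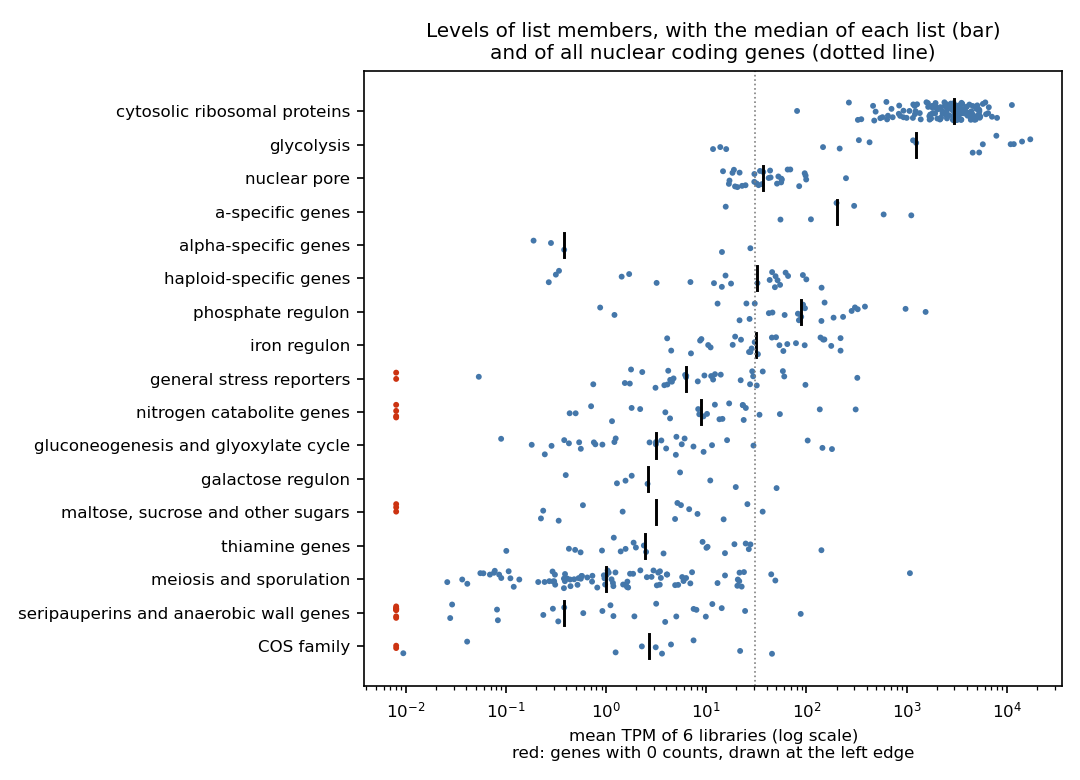
Mean TPM of 6 WT libraries (log scale) for each member of 17 gene lists, 1 point per gene, with a bar at the median of the list and a dotted line at the median of all nuclear coding genes, 30.6 TPM. Ribosomal protein genes cluster around 2970 TPM and meiosis genes around 1.004 TPM, and red points are genes with 0 counts.

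RNAs that lack a stable poly(A) tail had few counts in these poly(A)-selected libraries. The 55 mitochondrially encoded features had 12 counts in all 6 libraries together, and 48 of them were silent. The 12 rRNA features had 3 counts, and all 275 tRNA features were silent or near silent. Reads of rRNA and tRNA copies that fit several places would not be counted either. The 76 snoRNAs held 0.0205% of counts, and 44 of them were near silent (57.9%, against 14.7% of all features) and none silent. Among other noncoding RNAs RME2, the antisense RNA of IME4, had 61.5 ± 8.72 CPM, SRG1, transcribed across the SER3 promoter, 14.5 ± 1.61 and ICR1, transcribed across the FLO11 promoter, 14.2 ± 1.003 (SD, n = 6). The 674 open reading frames that are not in RefSeq R64 held 0.0823% of counts, and 86.4% of them were silent or near silent, against 21.4% of all features. YDR133C took the most counts of these, 209 ± 23.5 CPM, and YDR154C 86.3 ± 7.52 CPM. No source used here gives the strand setting of the counting. Reads of such overlapping or antisense features and of the partner gene therefore cannot be told apart.

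Duplicated genes were compared within each library, which removes depth and scaling. Of 118 paralog pairs 28 were near-identical and 2 had too few counts, and 88 were tested on the log2 ratio of counts per coding length with an exact two-sided sign-flip permutation test, adjusted over the 88 by Benjamini-Hochberg. With 6 libraries the smallest p this test can give is 0.03125. In 85 of the 88 pairs (96.6%) the members kept the same order in 6 of 6 libraries, each called with adjusted p = 0.0324 by the exact test. The difference was over 2-fold in 51 pairs and over 10-fold in 24. A call shows that a ratio repeated across these 6 libraries of the same strain. A bias fixed to a gene, such as untranslated regions left out of its length, would repeat too and was not tested. For pairs near balance a call therefore does not settle which member had more RNA. With unique windows in place of the coding length, 85 of the 88 pairs were called as well. Windows that the members share are lost from both, so this swap could change the ratios little and is no separate support.

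Enzyme and transporter pairs covered the widest range. Across the 49 tested pairs outside the ribosome the median difference was 5.23-fold, and 22 exceeded 10-fold. ADH1 had 7466 ± 303 TPM and ADH2, which works in the reverse direction on ethanol, 1.21 ± 0.242, a ratio of 6134-fold, or 12.58 ± 0.28 on the log2 scale (SD, n = 6). TDH3 exceeded TDH1 by 1088-fold, PDC1 exceeded PDC5 by 844-fold, and CDC19 exceeded PYK2, the other pyruvate kinase, by 572-fold. The plasma membrane proton pump PMA1 exceeded PMA2 by 384-fold, and the glutamate dehydrogenase GDH1 exceeded GDH3 by 303-fold. The adjusted p of these 6 pairs was 0.0324 by the exact test.

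Other pairs were near balance. HTA1 had 1337 ± 80.5 TPM and HTA2, which also encodes histone H2A, 1268 ± 74.0, a ratio of 1.05-fold with HTA1 higher in every library. The S-adenosylmethionine synthetase SAM2 exceeded SAM1 by 1.10-fold. Thioredoxin TRX1 exceeded TRX2 by 1.12-fold, and the pore proteins NUP100 and MLP2 exceeded NUP116 and MLP1 by 1.11-fold and 1.13-fold. For NUP100 with NUP116 and for MLP2 with MLP1 the call rested on the correction for length, since in CPM NUP116 was higher than NUP100 by 0.06 on the log2 scale with adjusted p = 0.0971 by the exact test. MLP1 over MLP2 was then -0.02 on the log2 scale, with adjusted p = 0.384 by the exact test. PYC1, pyruvate carboxylase, had 78.8 ± 9.99 TPM and PYC2 77.1 ± 7.11, each higher in 3 of 6 libraries (exact p = 0.75).

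Among the pairs tested, those of ribosomal proteins lay closer together. They are all A/B pairs that could be tested, whereas the other pairs were a chosen list. The medians of the 2 sets therefore do not compare kinds of gene in general. In 37 of 39 tested pairs the members kept the same order in every library. The median difference of the 39 pairs was 1.63-fold, and 16 pairs differed by over 2-fold. RPL15A had 5151 ± 207 TPM and RPL15B 80.6 ± 3.37, a ratio of 63.9-fold, or 6.00 ± 0.08 on the log2 scale (SD, n = 6), though their proteins are 99.02% identical. RPS9B had 4416 ± 63.4 TPM and RPS9A 326 ± 4.45, a ratio of 13.5-fold. RPS14A exceeded RPS14B by 7.88-fold, RPL22A exceeded RPL22B by 7.11-fold, RPS22A exceeded RPS22B by 4.68-fold and RPS28A exceeded RPS28B by 4.21-fold. The A copy was the higher in 19 of the 37 pairs and the B copy in 18.

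Ratios that repeated across the libraries were also found in pairs that encode the same protein. RPL43A had 4931 TPM and RPL43B 1687, a ratio of 2.92-fold, and the histone H3 gene HHT2 exceeded HHT1 by 1.68-fold. RPL19B exceeded RPL19A by 1.63-fold, RPL23B exceeded RPL23A by 1.54-fold, RPS16B exceeded RPS16A by 1.29-fold, RPL12B exceeded RPL12A by 1.248-fold, RPS18B exceeded RPS18A by 1.14-fold and RPL40A exceeded RPL40B by 1.13-fold. Each of these had adjusted p = 0.0324 by the exact test. RPL20B had 3162 ± 129 TPM and RPL20A 3092 ± 105, with RPL20B higher in 5 of 6 libraries (adjusted p = 0.0959 by the exact test). RPP1A and RPP1B, acidic stalk proteins that are 61.3% identical, had 3532 ± 337 and 3514 ± 350 TPM (exact p = 0.8125). The range of the 6 log2 ratios of RPP1A over RPP1B ran from -0.10 to 0.08.

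**Figure D5:**
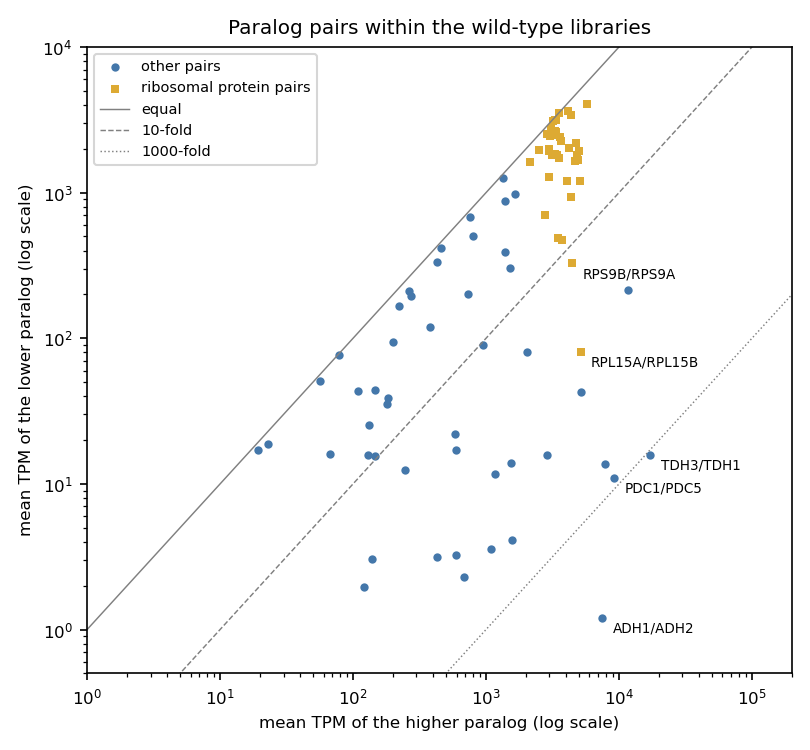
Mean TPM of the higher and of the lower member of 88 tested paralog pairs (log scales), 1 point per pair, with lines of equal level, of 10-fold and of 1000-fold difference. Ribosomal protein pairs lie within the 10-fold line except RPL15A with RPL15B (63.9-fold) and RPS9B with RPS9A (13.5-fold), and ADH1 with ADH2 lies below the 1000-fold line.

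Most genes varied little between the 6 libraries. Among 4447 genes with at least 20 CPM the median SD of log2 CPM was 0.107. The steadiest was OLA1, an ATPase related to translation, with an SD of 0.00996 around 1023 CPM, and the initiation factor subunit TIF34 had 0.0103 around 672 CPM. Only 6 genes had an SD over 0.5, and all 6 act in or respond to iron supply: FIT2 (1.10), FIT3 (1.05), TIS11 (0.83), SIT1 (0.67), FRE4 (0.58) and FET3 (0.53). FIT2, a cell wall protein that holds iron siderophores, had 37.4, 70.4, 45.3, 129.6, 23.7 and 15.1 CPM in WT 1 to WT 6. FET3, the iron transport oxidase, had 360.0, 712, 593, 669, 404 and 291. For both genes WT 2, WT 3 and WT 4 were the 3 highest libraries, and for the iron list as a whole the share of counts was 0.336, 0.294 and 0.329% in these against 0.179 to 0.214% in the others. The cause of this spread was not tested.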

How the data were processed

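Per the labels' protocols, a stranded poly(A) kit received 600 ng of RNA, and amplification took 12 PCR cycles. The deposited values are raw counts per gene, not normalised. HTSeq 0.6.1p1, STAR 2.5.3a and bcl2fastq 2.20.0.422 are named in the submitters' processing notes. Genome build, annotation and strand setting: not given in the sources used here. Names, classes, coding lengths, gene order and sequences came from RefSeq R64, to which 6078 of 7036 features matched. The 5 summary rows of HTSeq stayed out of library sizes.

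CPM, TPM, shares and pairs were computed with Python 3.11.15, pandas 2.3.3 and numpy 2.4.6. Pair ratios used a prior of 0.5 counts and a summed count of at least 60 in each member. BLAST 2.17.0 marked 262 features as having a near-identical copy (minimum identity 95%, minimum coverage 50% of the length). TMM used edgeR 4.0.16, and the alternative size factors used DESeq2 1.42.0, in R 4.3.3. The steps were tested on simulated data. Reads carry no molecular identifiers, so limits from counts cover counting error only.

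Members, lists and pairs were chosen with earlier results of these data known, so no list is independent support. Named genes were the highest by TPM and CPM, the extremes of each list, of spread and of pair ratios, and the named silent genes; APQ13, RRT7, RRT15 and a few well-known list members were chosen after their values were seen.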

Additional observations from a re-analysis of the deposited data

How the results depend on the processing

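Shares depend most on the unit. Per coding length the share of ribosomal proteins was 40.99% of TPM and that of glycolysis 8.12%, and per unique window, an alternative chosen after seeing the data, 45.2% and 7.70%. With near-identical genes left out of list and total, they were 20.6% and 9.11% of counts. The protein-coding denominator, TMM and DESeq2 size factors moved none of the 42 lists by as much as 1 SD. Coding genes held 99.9% of counts, and both sets of size factors were scaled to average out over the 6 libraries. These alternatives could therefore hardly move a mean share and are no check on it. Leaving out WT 2 and WT 3 together was an alternative also added after seeing the data. It gave ribosomal proteins 24.1% and glycolysis 11.2% of counts. Dropping these libraries cannot move a mean by as much as 1 SD, so that limit is no check on it. The number of genes that hold 50% of the pool was 114 in TPM and 102 per unique window. Silent coding genes numbered 40 without near-identical copies and 182 when up to 3 counts were allowed. Near-silent coding genes, 390 in the report, numbered 282 under 0.5 CPM, 491 under 2 CPM, 343 under 1 TPM, 324 without near-identical copies and 320 when up to 3 counts were called silent. Leaving out each library in turn gave ribosomal proteins between 22.9 and 23.6%, glycolysis between 10.9 and 11.1%, 207 to 215 genes for 50% of counts, 117 to 121 silent and 376 to 384 near-silent coding genes. With 5 libraries the smallest exact p is 0.0625, so no pair can be called. The number of the 88 pairs with 1 order in every library left was 85 to 86. Leaving out a library cannot lower that number, nor the number of silent genes, so neither is a check. All 88 log2 ratios kept call and direction with unique windows in place of length. That swap takes shared windows from both members, so it could change little. Without length correction 86 of the 88 kept them. The ratio of NUP116 over NUP100 became 0.059 (adjusted p = 0.0971, exact test), and that of MLP1 over MLP2 -0.02 (adjusted p = 0.384, exact test); dropping the length term makes both changes. No paired analysis was possible because only 1 group was analysed and replicate numbers pair nothing within it; this concerns groups of libraries, not the ratios of paralogs within a library. Depth limits the silent calls, since 0 counts allow up to 0.0348 CPM where reads can be assigned. For the 53 silent coding genes with no unique window that ceiling need not hold.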
